A study of Homo sapiens with 6 samples.

Results

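Genes of interferon signalling, antigen presentation and innate immunity were followed in HepG2 cells, a human cell line from a liver tumour, with and without the deglycating kinase FN3K. The genes were taken by name: HLA genes, B2M, TAP and TAPBP, the IFI, IFIT, IFITM, ISG, OAS and MX1 genes, STAT, IRF, JAK and SOCS genes, NF-kB subunits and inhibitors, TNF receptors, TNFAIP and TRAF genes, interleukin receptors, chemokines, CD14, Toll-like receptors and MYD88. This rule found 39 of the 6357 loci of the deposited table, of which 4926 carry a gene name. It reads only the start of the name, so it also took IRF2BP1, IRF2BP2, IRF2BPL, NFKBIL1, TNFAIP8L1 and the receptor antagonist IL1RN. Many well-known genes of these pathways, among them HLA-B, HLA-C, TAP1, NFKB1, RELA, MYD88 and the OAS, IFIT, JAK and Toll-like receptor genes, were not analysed here.

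The libraries came from 3 plates of WT HepG2 cells and 3 plates of FN3K KO HepG2 cells, in which the gene was disrupted with CRISPR, all grown in the same medium with fetal bovine serum. The sources used here give no immune stimulus, no dose and no time course, and they do not give the number of KO clones, so 1 clone cannot be told apart from the knockout itself. The paper's methods describe plates in triplicate, and the labels only number the samples. Neither names separate experiments, and p-values then measure the spread between these plates. Each value is an FPKM, that is fragments scaled to transcript length and library size, so levels can be compared between genes. FN3K had 27.7, 21.9 and 23.2 FPKM in the WT libraries and 0.782, 1.03 and 0.704 FPKM in the KO libraries. FPKM summed to between 289983 and 314164 per library, and Pearson correlations across loci on the log2 scale were 0.980 to 0.983 within groups and 0.923 to 0.931 between them. Of 9 hepatocyte markers, 8 were measured and their summed FPKM was 7866 to 7985 in WT and 14512 to 15738 in FN3K KO. They did not all go one way: AFP (log2 fold change 2.01), TTR (2.90), APOA1 (1.14), APOB (0.66) and FGB (0.52) were higher, HNF4A was lower (-0.35), and SERPINA1 (0.08) and TF (-0.03) were not called, with AFP going from a mean of 1537 to 6206 FPKM. Of 10 leukocyte markers only CD74, the class II invariant chain, was measured, at 66.0 to 72.8 FPKM in WT and 72.6 to 83.8 FPKM in FN3K KO. The other 9, and all 6 fibroblast and 5 endothelial markers, were not analysed here, nor was albumin. In bulk libraries fewer cells with a transcript and less of it per cell cannot be told apart.

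As background, cells detect microbial products through Toll-like receptors and their helper CD14, and detect cytokines through TNF and interleukin receptors. These routes meet on NF-kB, a transcription factor held in the cytoplasm by inhibitor proteins, which switches on chemokines and also the genes of its own inhibitors. Interferons act through JAK kinases, STAT and IRF factors to raise antiviral genes and the class I machinery that shows peptides to T cells. Hepatocytes take part in this defence by secreting chemokines and acute phase proteins.

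Difference between the groups was tested with limma on log2(FPKM + 1) over all 6357 loci, and a gene was called higher or lower at a Benjamini-Hochberg adjusted p under 0.05. In FN3K KO cells 14 of the 39 immune genes were called higher (35.9%) and 17 lower (43.6%), against 21.2% higher and 36.5% lower of all loci. For 32 of the 39 genes (82.1%) the 2 groups of libraries stood fully apart, which held for 63.4% of all loci. When a change of more than 1 log2 unit was also asked for, at an unadjusted p under 0.05, 3 genes were higher (CD14, CCL20 and CXCL8) and 1 was lower (IL1RN). The same limit took 4.31% of all loci as higher and 3.32% as lower. The median log2 fold change was -0.20 over the immune genes and -0.14 over all loci. Ballgown, the tool named in the methods, uses a linear model with a covariate for library expression. As fitted here, the covariate was the sum of log2(FPKM + 1) over loci below that library's 75th percentile. Each locus was tested on its own variance, not on the shared variance of limma. With this adjustment, 9 of the 39 genes were called higher and 3 lower, against 600 higher and 527 lower of all 6357 loci. The called genes that kept their direction and their call in all 12 alternatives were B2M, CCL20, CD14, IFI35, IFI6, NFKBIZ, TNFAIP1 and TNFRSF1A on the higher side and IL1RN, IRF2BP2 and TNFRSF10D on the lower side.

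**Figure D1:**
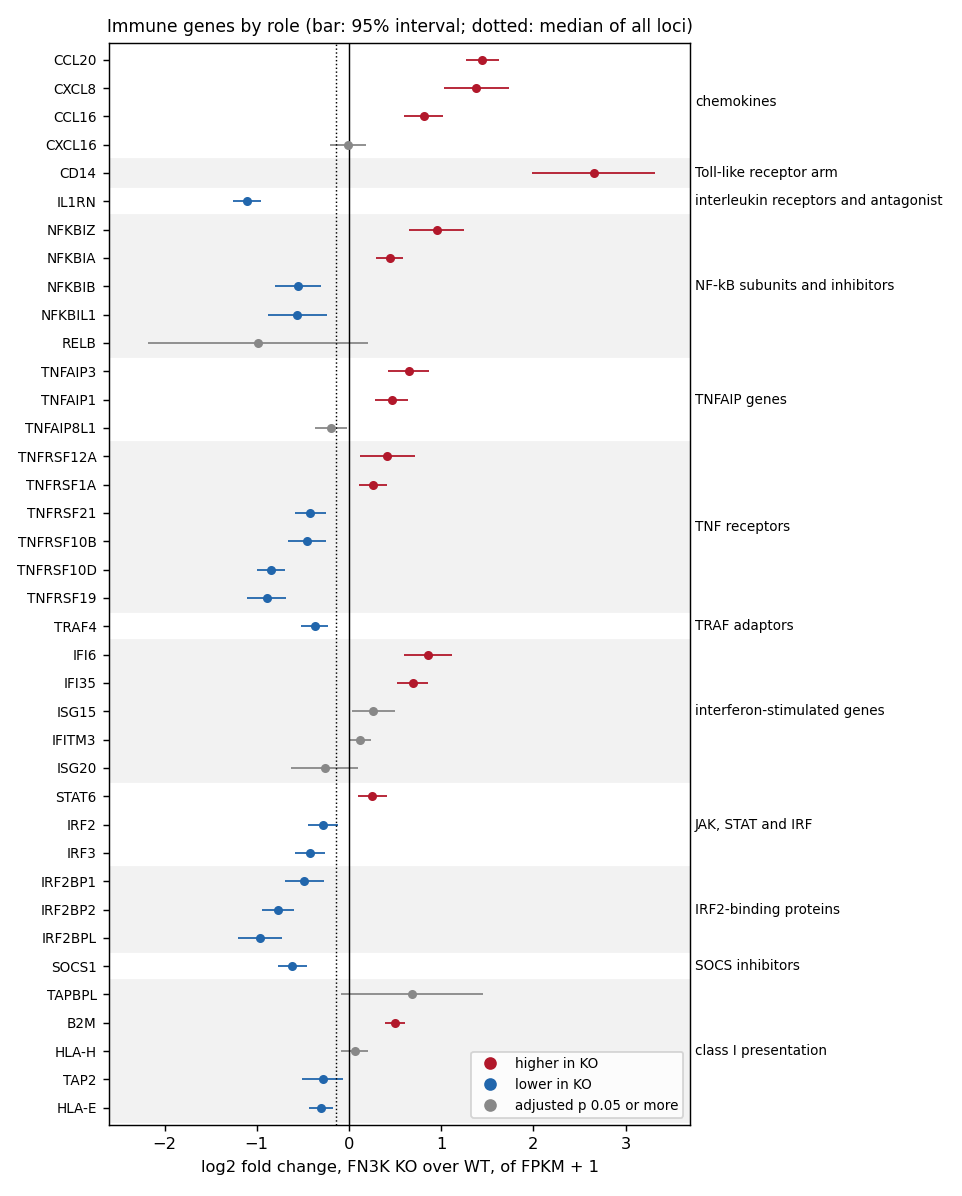
Log2 fold change of FPKM + 1 (horizontal axis, FN3K KO over WT) for 38 of the 39 immune genes grouped by role; points are limma estimates from 3 libraries against 3, bars are 95% confidence intervals, red and blue mark adjusted p under 0.05 and the dotted line is the median of all loci at -0.14. CD14 stands farthest to the right at 2.65 and IL1RN farthest to the left among the called genes at -1.10.

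To show what stands before the genes that moved, promoters were read from the RefSeq table of build GRCh38.p14, which held 28 of the 39 genes. Since this is under 80% of them, no share over the immune genes is given, and single promoters are described. The 250 bases before the start site were searched on both strands for the binding consensus of NF-kB, for the core of the interferon-stimulated response element (GAAANNGAA) and for the gamma-activated sequence that STAT factors bind (TTCNNNGAA). Of 35116 promoters, 5.21% held the NF-kB consensus, 6.88% the interferon element core and 6.57% the gamma-activated sequence. A match is a description of letters, not a measured binding site. The following 4 promoters belong to genes that were higher in FN3K KO cells, with the NF-kB consensus in capitals. They were picked for print after their values were seen. They lie at chr2:227813592-227813841 on the plus strand, chr3:101827740-101827989 on the plus strand, chr14:35404750-35404999 on the minus strand and chr6:137867009-137867258 on the plus strand.
CCL20: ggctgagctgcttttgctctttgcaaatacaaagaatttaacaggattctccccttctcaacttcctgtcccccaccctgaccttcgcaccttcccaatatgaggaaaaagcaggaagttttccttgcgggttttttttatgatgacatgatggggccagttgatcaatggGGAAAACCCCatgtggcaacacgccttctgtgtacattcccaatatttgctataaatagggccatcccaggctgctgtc
NFKBIZ: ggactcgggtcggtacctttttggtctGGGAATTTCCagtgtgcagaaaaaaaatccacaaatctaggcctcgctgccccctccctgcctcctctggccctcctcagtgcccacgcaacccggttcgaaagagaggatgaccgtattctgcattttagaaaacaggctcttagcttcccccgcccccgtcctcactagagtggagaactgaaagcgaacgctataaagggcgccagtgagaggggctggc
NFKBIA: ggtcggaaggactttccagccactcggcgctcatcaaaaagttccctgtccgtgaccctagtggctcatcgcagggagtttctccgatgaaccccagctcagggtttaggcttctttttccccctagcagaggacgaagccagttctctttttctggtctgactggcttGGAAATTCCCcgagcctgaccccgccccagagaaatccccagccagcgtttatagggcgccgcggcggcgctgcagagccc
TNFAIP3: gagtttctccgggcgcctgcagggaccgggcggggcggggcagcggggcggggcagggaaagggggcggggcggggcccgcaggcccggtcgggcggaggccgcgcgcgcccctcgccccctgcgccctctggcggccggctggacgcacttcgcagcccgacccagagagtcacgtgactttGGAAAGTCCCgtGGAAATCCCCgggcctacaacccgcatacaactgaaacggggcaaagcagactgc

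The match lies from 79 to 70 bases before the start in CCL20 and from 81 to 72 in NFKBIA, and farther off, from 223 to 214, in NFKBIZ. TNFAIP3 holds 2 matches, the nearer from 55 to 46 bases before the start. The promoters of TNFAIP1, B2M and IFITM3 held the consensus too. The rest of the 28 searched promoters did not. Among these were the higher genes CD14, IFI6 and IFI35 and the lower genes SOCS1, TAP2 and IRF2BP1. The next promoters belong to IFI6, which was higher in FN3K KO cells, and to ISG15, which was not called, with the interferon element core in capitals. They lie at chr1:27672193-27672442 on the minus strand and chr1:1013247-1013496 on the plus strand.
IFI6: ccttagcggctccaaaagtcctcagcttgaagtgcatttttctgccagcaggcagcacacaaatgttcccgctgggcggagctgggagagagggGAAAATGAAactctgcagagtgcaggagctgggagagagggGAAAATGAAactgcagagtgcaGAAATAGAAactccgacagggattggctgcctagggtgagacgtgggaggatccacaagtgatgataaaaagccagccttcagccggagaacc
ISG15: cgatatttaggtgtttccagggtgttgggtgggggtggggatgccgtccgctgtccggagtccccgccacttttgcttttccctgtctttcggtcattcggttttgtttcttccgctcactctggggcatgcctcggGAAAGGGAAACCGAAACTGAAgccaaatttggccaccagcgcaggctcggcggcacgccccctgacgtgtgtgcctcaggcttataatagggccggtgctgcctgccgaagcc

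Each of these promoters holds 3 matches, which stand apart in IFI6 and overlap in ISG15. The core was also found before B2M, TAP2, IFITM3, ISG20, SOCS1, NFKBIA and NFKBIZ. Some of these genes were called higher, some lower and some not at all (B2M, TAP2 and IFITM3, for example). The gamma-activated sequence was found before CD14, IFI35 and IRF2BP1.

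Chemokines, which draw leukocytes into tissue, included some of the genes that rose most. Of 4 measured, CCL20, CXCL8 and CCL16 were higher in FN3K KO cells and CXCL16 was not called. Higher calls were made for 21.2% of all loci. CCL20 (chr2:227805739-227817564 in GENCODE 29), the ligand of CCR6 that draws dendritic cells and lymphocytes, had 90.5, 109 and 109 FPKM in the WT libraries and 269.9, 280.3 and 292 FPKM in the KO libraries. The groups stood far apart, and the mean rose 2.73-fold, from 103 ± 10.7 to 281 ± 11.3 FPKM (SD, n = 3). Its log2 fold change was 1.45 (standard error 0.08, adjusted p = 1.7e-06 in limma). CXCL8 (chr4:73740506-73743716), also known as interleukin-8 and a neutrophil attractant, was much less abundant, with 2.65, 3.52 and 3.21 FPKM in WT and 7.76, 10.4 and 11.3 FPKM in FN3K KO. The groups again did not overlap, and the log2 fold change of 1.38 (standard error 0.15, adjusted p = 1.1e-04 in limma) stood beside 1.45 for CCL20.

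CCL16, a chemokine made by the liver, had 9.76, 9.91 and 8.97 FPKM in WT and 19.2, 15.4 and 17.9 FPKM in FN3K KO. It rose 1.84-fold in the mean (log2 fold change 0.81, standard error 0.09, adjusted p = 1.1e-04 in limma). CXCL16, a membrane-bound chemokine, had 27.5, 29.7 and 32.8 FPKM in WT and 28.0, 33.0 and 28.3 FPKM in FN3K KO. Its values overlapped, and the 95% confidence interval of its log2 fold change ran from -0.21 to 0.18. Under Ballgown's adjustment CXCL8 and CCL16 were not called, at log2 fold changes of 1.61 and 0.64 with adjusted p-values of 0.052 and 0.066 in the linear model, while the call of CCL20 was kept.

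**Figure D2:**
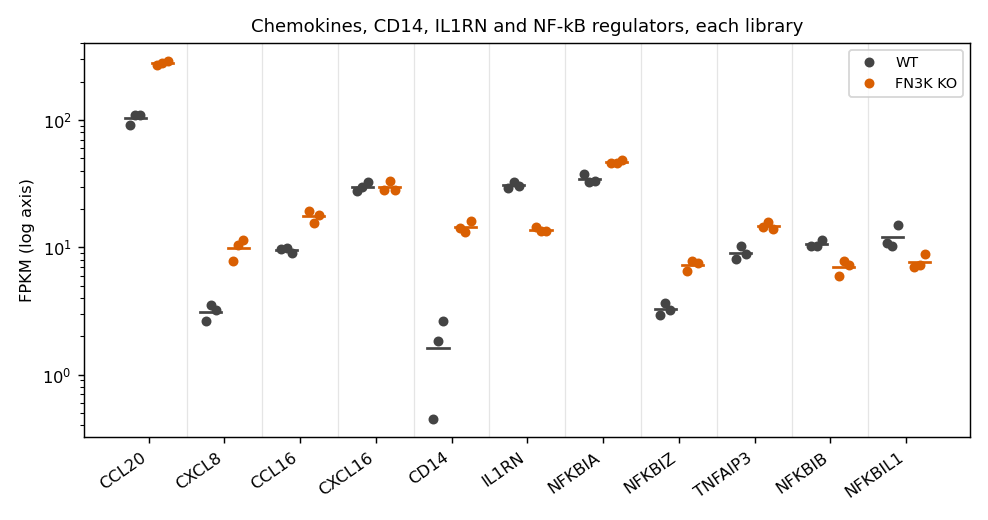
FPKM on a log axis in each of the 6 libraries (grey WT, orange FN3K KO; horizontal bars are group means of 3) for chemokines, CD14, IL1RN and regulators of NF-kB. CCL20 lies at 90.5 to 109 in WT and 269.9 to 292 in FN3K KO, CD14 has the widest gap, and CXCL16 overlaps.

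CD14 (chr5:140631728-140633701), the surface and secreted co-receptor that hands bacterial lipopolysaccharide to Toll-like receptor 4, changed most of all 39 genes. It had 0.446, 1.83 and 2.62 FPKM in WT and 14.3, 13.1 and 16.1 FPKM in FN3K KO. The WT values were low and uneven for their level, at 1.63 ± 1.10 FPKM, beside 14.5 ± 1.47 FPKM in FN3K KO (SD, n = 3). The groups did not overlap. The log2 fold change was 2.65 (standard error 0.29, adjusted p = 9.5e-05 in limma). At this WT level the pseudocount sets much of the fold, and with 0.1 in place of 1 the log2 fold change was 3.36.

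IL1RN (chr2:113107214-113134016) encodes the interleukin-1 receptor antagonist, which blocks interleukin-1 and is secreted by the liver. It had 29.1, 32.3 and 30.5 FPKM in WT and 14.3, 13.3 and 13.5 FPKM in FN3K KO. All KO libraries were below all WT libraries, and the mean was 2.24-fold lower (log2 fold change -1.10, standard error 0.07, adjusted p = 2.8e-06 in limma). It was the only gene of the 39 past a log2 fold change of 1 on the lower side in limma.

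The regulators of NF-kB went in both directions. NFKBIZ (chr3:101827991-101861022), an inducible nuclear co-regulator of NF-kB, had 2.92, 3.66 and 3.23 FPKM in WT and 6.50, 7.80 and 7.46 FPKM in FN3K KO. It was 2.22-fold higher in the mean (log2 fold change 0.95, standard error 0.13, adjusted p = 3.4e-04 in limma). TNFAIP3 (chr6:137867188-137883312), the ubiquitin-editing enzyme A20 that ends TNF and Toll-like receptor signals, had 8.11, 10.3 and 8.82 FPKM in WT and 14.5, 15.8 and 13.8 FPKM in FN3K KO. Its log2 fold change was 0.65 (standard error 0.10, adjusted p = 6.1e-04 in limma), with no overlap between the groups.

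NFKBIA (chr14:35401511-35404749), the inhibitor IκBα that holds NF-kB in the cytoplasm, was the most abundant gene of this group. It had 37.3, 32.3 and 33.4 FPKM in WT and 46.3, 46.3 and 48.1 FPKM in FN3K KO, a log2 fold change of 0.44 (standard error 0.06, adjusted p = 5.0e-04 in limma). NFKBIA lies in a stretch of chromosome 14 from ABHD4 to FBXO33 where 41 of the 49 other loci were also called higher, the median of the 49 being 0.60 on the log2 scale. Of those, 39 had a higher log2 fold change than NFKBIA, and the part of that stretch in its change was not tested.

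By contrast NFKBIB, the related inhibitor IκBβ, was lower, with 10.2, 10.3 and 11.5 FPKM in WT and 5.92, 7.75 and 7.25 FPKM in FN3K KO (log2 fold change -0.56, adjusted p = 0.0025 in limma). NFKBIL1, an IκB-like protein encoded in the major histocompatibility complex, was lower too, with 10.9, 10.2 and 14.8 FPKM in WT and 7.05, 7.27 and 8.83 FPKM in FN3K KO (log2 fold change -0.56, adjusted p = 0.0089 in limma). The groups stood apart for both of the pair, as for 63.4% of all loci. RELB, a subunit of the non-canonical NF-kB pathway, had the lowest level of the 39 genes. It had 0.660, 2.91 and 1.05 FPKM in WT, 0.716 FPKM in KO replicate 2, and is listed at 0 in the other KO libraries, and it was not called (adjusted p = 0.14 in limma). Ballgown's adjustment kept the call of NFKBIZ and lost the others, with log2 fold changes of 0.32 for NFKBIA, 0.81 for TNFAIP3, -0.37 for NFKBIB and -0.40 for NFKBIL1.

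The 2 other TNFAIP genes share only the name: TNFAIP1, an adaptor of a ubiquitin ligase, was higher, with 10.2, 11.6 and 11.5 FPKM in WT and 14.8, 16.5 and 15.7 FPKM in FN3K KO (log2 fold change 0.46, standard error 0.08, adjusted p = 0.0012 in limma), and TNFAIP8L1 had a value of -0.20 with an adjusted p of 0.051 in limma.

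Of the genes that carry signals to NF-kB and were listed apart from the rule, 9 of 30 were measured. RNF31, the catalytic subunit of the linear ubiquitin complex, was higher, at 3.18, 2.39 and 4.70 FPKM in WT and 6.62, 6.45 and 6.64 FPKM in FN3K KO (log2 fold change 0.81, adjusted p = 0.0056 in limma). RNF31 (chr14:24146683-24160661) lies in the same stretch of chromosome 14 as NFKBIA, whose part in its change was not tested. The 3 lower genes were MALT1, a paracaspase, at -0.74, IRAK2 at -0.46, and SHARPIN, a partner of RNF31, at -0.21 (adjusted p = 0.021, 0.045 and 0.022 in limma). The other 5, RIPK1, BIRC2, FADD, CASP8 and TOLLIP, were not called. The median over the 9 genes was -0.10, and 21.2% of all loci were called higher and 36.5% lower. On leaving out 1 library the count of lower genes fell to 0 without KO replicate 1 or WT replicate 3 and to 1 without KO replicate 3. Ballgown's adjustment gave 2 higher (RIPK1 and TOLLIP) and 0 lower, with RNF31 no longer called at 0.97, and 75th percentile scaling added TOLLIP and lost SHARPIN.

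TNF receptors bind the cytokines of the TNF family. In FN3K KO cells 2 of the 6 measured were higher and 4 were lower, beside 21.2% and 36.5% of all loci. TNFRSF19, an orphan receptor that is also a target of Wnt signalling, had 20.5, 20.0 and 18.6 FPKM in WT and 9.26, 11.7 and 9.62 FPKM in FN3K KO. It was 1.93-fold lower in the mean (log2 fold change -0.89, standard error 0.09, adjusted p = 7.0e-05 in limma). TNFRSF10D, a decoy receptor for the death ligand TRAIL, had 29.3, 29.04 and 29.9 FPKM in WT and 15.5, 17.3 and 15.0 FPKM in FN3K KO (log2 fold change -0.85, standard error 0.07, adjusted p = 1.5e-05 in limma).

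TNFRSF10B, the death receptor DR5 that TRAIL activates, lies close to TNFRSF10D on chromosome 8. The transcript listed for this locus is annotated as a retained intron form, and the gene overlaps the protein-coding gene RHOBTB2. TNFRSF10B was lower as well, going from 29.2, 33.7 and 35.5 FPKM to 22.8, 26.1 and 22.1 FPKM, a log2 fold change of -0.45 (adjusted p = 0.0026 in limma). TNFRSF21, the death receptor DR6, was the second most abundant of the family and fell from 79.8 ± 5.88 to 59.5 ± 4.68 FPKM (SD, n = 3; log2 fold change -0.42, adjusted p = 0.0016 in limma). The WT and KO libraries did not overlap in any of these 4 receptors, and they stood apart for 63.4% of all loci.

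TNFRSF1A, the main receptor for TNF itself, was higher, with 35.1, 39.3 and 41.6 FPKM in WT and 46.1, 47.4 and 45.8 FPKM in FN3K KO (log2 fold change 0.26, adjusted p = 0.010 in limma). TNFRSF12A, the receptor of the cytokine TWEAK, was the most abundant of the 6 and also the least stable. It had 73.2, 86.7 and 105 FPKM in WT and 100.1, 127 and 125 FPKM in FN3K KO, so that a WT and a KO library overlapped, and its log2 fold change was 0.41 (adjusted p = 0.024 in limma). This call was lost without WT replicate 1 or 2 and without KO replicate 2 or 3, where the log2 fold change was 0.29 at the lowest, and in limma without the variance trend. Under Ballgown's adjustment TNFRSF1A, at 0.43, and TNFRSF10D, at -0.76, kept their calls. The other 4 receptors lost them, with log2 fold changes of 0.80 for TNFRSF12A, -0.19 for TNFRSF10B, -0.21 for TNFRSF21 and -0.83 for TNFRSF19. TRAF4, an adaptor of this family that also works in cell polarity, was lower, at 53.6 ± 1.95 FPKM in WT and 41.3 ± 2.96 FPKM in FN3K KO (SD, n = 3; log2 fold change -0.37, adjusted p = 0.0013 in limma), a call not kept with that adjustment.

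**Figure D3:**
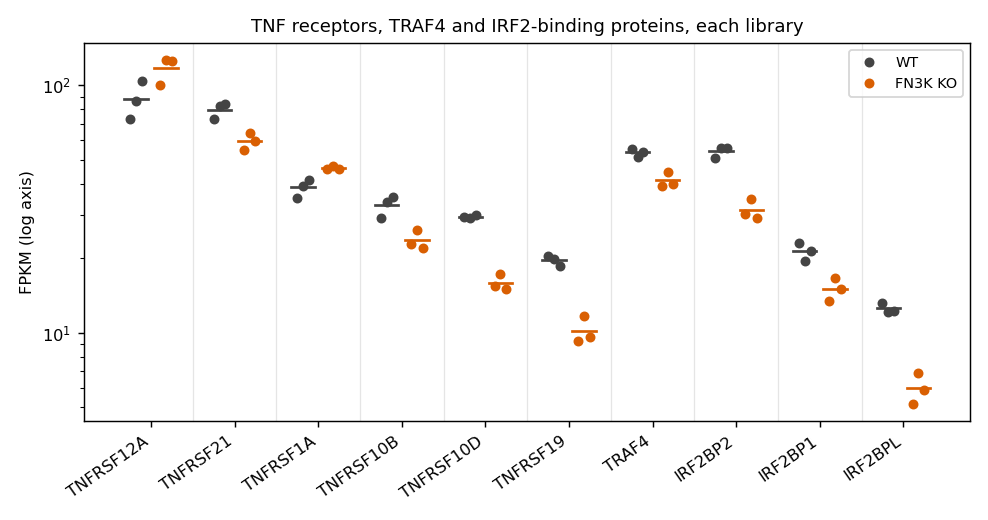
FPKM on a log axis in each of the 6 libraries (grey WT, orange FN3K KO; horizontal bars are group means of 3) for TNF receptors, TRAF4 and the IRF2-binding proteins. TNFRSF10D and TNFRSF19 are nearly 2-fold apart, and TNFRSF12A is the one gene here whose groups overlap. Groups stood apart for 63.4% of all loci.

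Of the 5 interferon-stimulated genes that the rule took, 2 were higher in FN3K KO cells and 3 were not called. Higher calls made up 21.2% of all loci. IFI6 (chr1:27666061-27672218), a mitochondrial protein that protects against cell death, had 4.41, 5.08 and 5.49 FPKM in WT and 8.91, 9.79 and 11.0 FPKM in FN3K KO. It was 1.98-fold higher in the mean (log2 fold change 0.86, standard error 0.11, adjusted p = 2.9e-04 in limma). IFI35 (chr17:43006725-43014456), a partner of the STAT-binding protein NMI, had 11.5, 12.9 and 13.0 FPKM in WT and 21.3, 21.4 and 19.6 FPKM in FN3K KO (log2 fold change 0.69, standard error 0.07, adjusted p = 7.8e-05 in limma). The groups stood apart for both genes, as for 63.4% of all loci.

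ISG15, the ubiquitin-like protein attached to other proteins in antiviral responses, had 23.0, 24.9 and 22.8 FPKM in WT and 23.7, 30.8 and 31.6 FPKM in FN3K KO. KO replicate 1 lay within the WT range, and the adjusted p was 0.054 in limma, while the log2 fold change was 0.26, or 0.39 and past the threshold without that library. IFITM3, a membrane protein that hinders virus entry, was the most abundant of the 5 at 104 ± 1.06 FPKM in WT and 114 ± 4.68 FPKM in FN3K KO (SD, n = 3; adjusted p = 0.068 in limma). Its groups did not overlap, and it passed the threshold with 75th percentile scaling, as ISG15 did. Its paralogs have similar sequences, so its level is uncertain where reads could be shared. ISG20, an exonuclease that degrades RNA, had 6.04, 10.2 and 9.17 FPKM in WT and 6.80, 6.88 and 6.55 FPKM in FN3K KO, with WT replicate 1 below all KO libraries and an adjusted p of 0.19 in limma. Without WT replicate 1 its log2 fold change went from -0.26 to -0.46 and passed the threshold on the lower side.

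Among 35 other interferon-stimulated genes listed apart from the rule, 10 were measured, with a median of 0.08. In this list 3 were higher, 1 was lower and 6 were not called, beside 21.2% higher and 36.5% lower of all loci. LY6E, a surface protein that restricts coronavirus entry, had 11.3, 11.5 and 9.38 FPKM in WT and 22.0, 24.0 and 21.8 FPKM in FN3K KO (log2 fold change 1.01, adjusted p = 2.4e-05 in limma). LGALS3BP, a secreted galectin-binding glycoprotein, was higher at 0.68, and USP18, which removes ISG15 from proteins and dampens interferon signals, at 0.67 (adjusted p = 2.1e-05 and 0.0010 in limma). BST2, the protein tetherin that holds budding viruses on the cell, was lower, at 53.6 FPKM in the WT mean and 40.2 FPKM in the KO mean (log2 fold change -0.41, adjusted p = 3.3e-04 in limma). Of the 10, Ballgown's adjustment called 1 higher and 0 lower, with LGALS3BP still called and LY6E, USP18 and BST2 no longer, at 0.95, 0.78 and -0.41. GBP2, not called here, was higher without KO replicate 1, at 1.07.

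Factors that pass on interferon and cytokine signals were found on both sides. IRF3, the factor that starts interferon production after virus sensing, fell from 21.1 ± 1.02 to 15.5 ± 0.907 FPKM (SD, n = 3; log2 fold change -0.42, adjusted p = 0.0010 in limma). IRF2, known as an antagonist of IRF1, fell from 15.7 ± 0.857 to 12.7 ± 0.466 FPKM (SD, n = 3; log2 fold change -0.28, adjusted p = 0.0086 in limma). The groups stood apart for both factors, as for 63.4% of all loci.

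STAT6, which carries interleukin-4 signals, was higher, at 15.8, 16.0 and 17.2 FPKM in WT and 20.8, 19.7 and 18.5 FPKM in FN3K KO (log2 fold change 0.25, adjusted p = 0.013 in limma). Its call was lost without KO replicate 1, where the log2 fold change was 0.21. SOCS1 (chr16:11254405-11256200), the feedback inhibitor of JAK kinases, had 21.0, 20.4 and 23.2 FPKM in WT and 13.9, 13.5 and 13.8 FPKM in FN3K KO. It was 1.57-fold lower in the mean (log2 fold change -0.61, standard error 0.07, adjusted p = 1.1e-04 in limma). Under Ballgown's adjustment the calls of IRF3, IRF2, STAT6 and SOCS1 were lost, and all 4 kept their direction.

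The 3 IRF2-binding proteins, transcriptional co-repressors with a zinc finger and a RING domain, were all lower in FN3K KO cells. A lower call was made for 36.5% of all loci. IRF2BPL, encoded by an intronless gene (chr14:77024543-77028699), had 13.2, 12.2 and 12.3 FPKM in WT and 5.17, 6.87 and 5.90 FPKM in FN3K KO (log2 fold change -0.96, standard error 0.11, adjusted p = 9.2e-05 in limma). IRF2BP2 (chr1:234604269-234609525) was the most abundant, with 51.1, 55.6 and 56.1 FPKM in WT and 30.1, 34.9 and 29.2 FPKM in FN3K KO (log2 fold change -0.77, standard error 0.08, adjusted p = 5.0e-05 in limma). IRF2BP1, also intronless, had 23.2, 19.5 and 21.5 FPKM in WT and 13.5, 16.6 and 15.0 FPKM in FN3K KO (log2 fold change -0.48, adjusted p = 0.0022 in limma). The 3 genes lie on different chromosomes and their groups did not overlap, as held for 63.4% of all loci. Under Ballgown's adjustment only IRF2BP2 was still called.

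Of 17 other genes of interferon reception and nucleic acid sensing, 5 were measured. Both chains of the interferon gamma receptor were lower, as were 36.5% of all loci. IFNGR1 had 47.3, 47.3 and 47.4 FPKM in WT and 30.7, 31.7 and 32.0 FPKM in FN3K KO (log2 fold change -0.57, adjusted p = 2.4e-05 in limma), and IFNGR2 had a log2 fold change of -0.23 (adjusted p = 0.0086 in limma). MAVS, TANK and AZI2, which work in the sensing of viral RNA, were not called, and the median of the 5 was -0.23. IFNGR2 was no longer called under Ballgown's adjustment.

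**Figure D4:**
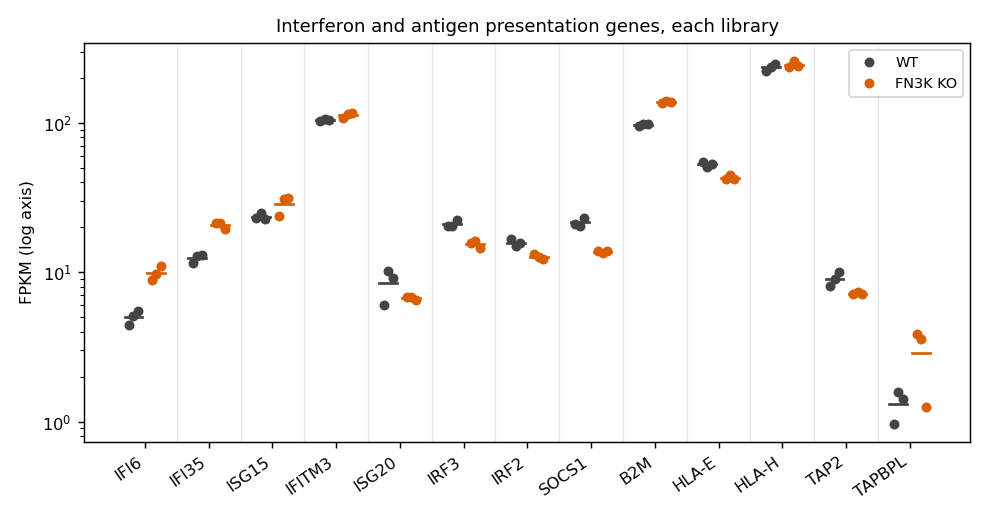
FPKM on a log axis in each of the 6 libraries (grey WT, orange FN3K KO; horizontal bars are group means of 3) for interferon-stimulated genes, signalling factors and antigen presentation genes. B2M is higher in FN3K KO (135 to 141 against 96.1 to 98.8) and HLA-E is lower, while HLA-H overlaps.

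In class I antigen presentation, of 5 measured genes 1 was higher, 2 were lower and 2 were not called. These counts stand near the shares of all loci, 21.2% higher and 36.5% lower. B2M (chr15:44711487-44718877), the light chain that every class I molecule needs, had 96.1, 97.9 and 98.8 FPKM in WT and 135, 141 and 139 FPKM in FN3K KO. The mean rose 1.42-fold with little spread (log2 fold change 0.50, standard error 0.05, adjusted p = 4.4e-05 in limma). HLA-E (chr6:30489467-30494205), the class I molecule read by receptors of natural killer cells, had 55.1, 50.8 and 53.3 FPKM in WT and 41.9, 44.6 and 42.1 FPKM in FN3K KO. It was lower, without overlap (log2 fold change -0.30, standard error 0.06, adjusted p = 0.0018 in limma).

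HLA-H, annotated as a class I pseudogene, had the highest level of all 39 genes, with 223, 237 and 248 FPKM in WT and 237, 261 and 241 FPKM in FN3K KO. Its values overlapped, with a 95% confidence interval of the log2 fold change from -0.09 to 0.21. Class I genes and pseudogenes have near-identical stretches, so the level of HLA-H is uncertain where reads could be shared. It passed the threshold on the higher side under Ballgown's adjustment, at 0.21.

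TAP2, a subunit of the transporter that moves peptides into the endoplasmic reticulum, had 8.08, 9.05 and 9.97 FPKM in WT and 7.13, 7.38 and 7.10 FPKM in FN3K KO (log2 fold change -0.29, adjusted p = 0.031 in limma). The groups did not overlap, yet the call was lost on leaving out any 1 library other than WT replicate 1, with log2 fold changes from -0.30 to -0.22. TAPBPL, a peptide editor of class I molecules, had 0.969, 1.57 and 1.41 FPKM in WT and 3.85, 3.60 and 1.25 FPKM in FN3K KO. KO replicate 3 was within the WT range, and without it the log2 fold change went from 0.68 to 1.04 and passed the threshold. Under Ballgown's adjustment B2M kept its call and HLA-E and TAP2 did not.

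Of 15 other genes of antigen processing, 8 were measured, 1 higher, 3 lower and 4 not called, with a median of -0.09. Among all loci 21.2% were called higher and 36.5% lower. PSME1, an interferon-induced activator subunit of the proteasome, had 124, 120.2 and 120.3 FPKM in WT and 180.4, 176 and 186 FPKM in FN3K KO (log2 fold change 0.57, adjusted p = 2.5e-05 in limma). PSME1 (chr14:24136158-24138967) lies in the stretch of chromosome 14 described beside NFKBIA, where 42 of all 50 loci were higher with a median of 0.60, and the part of that stretch in its change was not tested. The 3 lower genes were the endoplasmic reticulum chaperones that help to load class I molecules. CALR had a WT mean of 610.5 FPKM and a KO mean of 355 FPKM (log2 fold change -0.78, adjusted p = 3.8e-05 in limma), CANX a log2 fold change of -0.78 and PDIA3 one of -0.66 (adjusted p = 1.6e-05 and 3.1e-05 in limma). These chaperones fold many proteins besides class I molecules. PSMB8, ERAP1, ERAP2 and CD74 were not called. CD74 passed as higher without KO replicate 2 or WT replicate 1 and also with 75th percentile scaling or a replicate block.

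Acute phase genes, the liver's secreted answer to inflammatory cytokines, were listed as a last group. This list also held the receptor chain IL6ST and the constitutive SAA4. Measured were 6 of the 22. Of these 4 were higher and 0 were lower, beside 21.2% and 36.5% of all loci, with a median of 0.39. The 2 not called were SERPINA1 and the interleukin-6 receptor chain IL6ST. SAA4, a constitutive serum amyloid A protein, had 76.1, 72.5 and 68.4 FPKM in WT and 263, 230.0 and 269 FPKM in FN3K KO (log2 fold change 1.79, adjusted p = 3.0e-07 in limma). CP, the copper carrier ceruloplasmin, had 11.3, 13.7 and 11.9 FPKM in WT and 40.6, 44.0 and 33.9 FPKM in FN3K KO (log2 fold change 1.60, adjusted p = 4.9e-06 in limma). The fibrinogen chains FGB, at 0.52, and FGA, at 0.26, were the other 2 (adjusted p = 0.0018 and 0.032 in limma). FGB and SERPINA1 also stand among the hepatocyte markers, of which 5 were higher, 1 was lower and 2 were not called, and the part of these markers in the acute phase values was not tested. Under Ballgown's adjustment SAA4 and CP were still called, while FGB was at 0.27 and FGA at 0.02. FGA, whose groups overlapped, also lost its call without KO replicate 1 or 3, without WT replicate 2 or 3 and without the variance trend, and IL6ST was called lower without WT replicate 1, at -0.18.

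**Figure D5:**
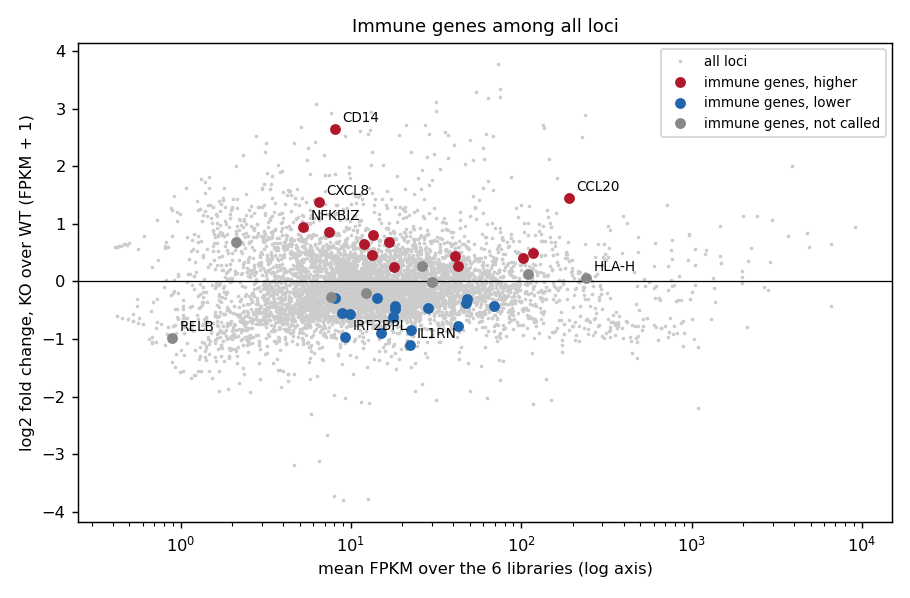
Log2 fold change of FPKM + 1 (vertical axis, FN3K KO over WT) against the mean FPKM of the 6 libraries (log axis); grey dots are all 6357 loci and large points 38 of the 39 immune genes, red where called higher, blue where called lower and grey where not called. The immune genes lie within the cloud of all loci, with CD14, CCL20 and CXCL8 toward its upper edge.

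In level the 39 genes ran from 0.890 FPKM for RELB to 241 FPKM for HLA-H over all libraries, with a median of 17.6 FPKM against 13.2 FPKM for all loci. A mean of at least 1 FPKM was reached by 38 of them. In GENCODE 29, 38 are protein-coding genes, and 12 overlap another protein-coding gene, among them IRF3 with BCL2L12, SOCS1 with RMI2, NFKBIB with SIRT2 and TNFRSF12A with CLDN6. Whether the libraries kept the strand is not given in the sources used here, so reads of such pairs could not be told apart.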

How the data were processed

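RNA from 3 WT and 3 FN3K KO plates of HepG2 cells was analysed. Per the submitters' processing notes, the authors used HISAT2 and StringTie 2.0.6 with build GRCh38.p5, and deposited FPKM values per assembled locus. Read counts are not part of these values, so depth is unknown and no counting interval was computed. The HISAT2 version, the strand and the filter on loci are not given in the sources used here. All 6357 loci were fitted with limma 3.58.1 (variance trend, R 4.3.3) on log2(FPKM + 1), which understates the folds of low genes, and p-values were adjusted by Benjamini-Hochberg over all loci. The fit was tested on simulated data with changes of 1 log2 unit, which does not bear on smaller changes. Transcript identifiers placed genes in GENCODE 29 (GRCh38). Members, roles and 5 lists of related genes were chosen with earlier results of these data known. Genes were named by a rule: called genes past a log2 fold change of 1, otherwise up to 10 called genes in each direction by size (mean of at least 1 FPKM, groups apart), the most abundant of each role, and 2 per list and direction. Others were added after their values were seen. Values of 1 member are not reported here. Python 3.11.15 and matplotlib 3.10.9 were also used.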

Additional observations from a re-analysis of the deposited data

How the results depend on the processing

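Ballgown's adjustment adds a covariate to 6 libraries, and its test used each locus's own variance, where limma shares variance between loci. What the covariate and the test each contributed to the lost calls was not tested. Under this setting 1127 loci passed in place of 3670. In it 9 immune genes were higher and 3 lower, in place of 14 and 17. Higher genes then made up 53.2% of all called loci in place of 36.7%, and the median of the immune genes was 0.12 in place of -0.20. Among the 39 genes CXCL16 and ISG20 changed sign, to 0.23 and 0.12. Among listed genes IRAK2 turned to 0.0273, ERAP2 to -0.63 and CASP8 to 0.67. ERAP1, FADD, PSMB8, SP100, UBE2L6 and the marker TF also changed sign. Only IRAK2 of all these had been called in limma. The cause was not tested. Ballgown's adjustment ended 20 of the 31 calls. With a minimum mean of 1 FPKM, which removes RELB, the median was -0.10. Scaling to a common 75th percentile turned CXCL16 to 0.0352 and added ISG15 and IFITM3, for 16 higher genes, and leaving out 1 library moved it between -0.0850 and 0.0531. Leaving out 1 library ended 3 calls (STAT6, TAP2 and TNFRSF12A, the last also without the variance trend) and added 4. IRAK2 lost its call without KO replicate 1 or 3 and without WT replicate 2 or 3, as well as with a pseudocount of 0.1 and without the variance trend. MALT1 lost its call without KO replicate 1 or 3 and without WT replicate 1 or 3, and SHARPIN without KO replicate 1 or 2, without WT replicate 3 and with 75th percentile scaling. With the replicate number as a block 15 immune genes were higher and 17 lower, ISG15 being the one added. Samples with the same number showed little shared deviation (correlations of 0.01, 0.01 and 0.05). With 3 libraries per group such small values cannot show whether the numbers pair them. Under a pseudocount of 0.1 all 39 genes kept their call and direction.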
